A study of Mus musculus with 8 samples.

Results

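The BCL2 family sets whether the outer membrane of the mitochondrion is opened, the step that commits a cell to intrinsic apoptosis. Anti-apoptotic members (Bcl2, Bcl2l1, Mcl1 and Bcl2a1b) hold the pore-forming effectors Bax and Bak1 in check, and the BH3-only members (Bid, Bbc3, Pmaip1 and Bcl2l11) either neutralise the former or activate the latter. In ECs the family is known as an end point of survival signals such as VEGF and of death signals such as TNF, and much of its control lies in protein turnover and cleavage, which RNA does not show. The 10 genes were chosen by name, and all 10 were present among the 20408 genes of the 8 expression tables. They were measured in cells with at least 1 UMI (unique molecular identifier, a tag that marks 1 captured RNA molecule) of Pecam1, the gene of the EC surface protein CD31.

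Single-cell RNA sequencing (10x Chromium, a droplet method that reads the 3′ end of transcripts) had been performed on live CD31+ CD45- cells sorted from breast tumours of adult mice. The groups were ECs of the spontaneous MMTV-PyMT tumour, in which the MMTV promoter drives the PyMT oncogene in mammary epithelium, and of the implanted tumour, grown from cultured cells of such tumours in the mammary fat pad, each injected into the tumour with PBS or with the STING agonist cGAMP, a cyclic dinucleotide. The labels name the strain c57bl/6 for all libraries, while the methods name FVB mice, so the strain is uncertain. With 2 libraries per group and 2 mice per group in the methods, a library was taken as 1 mouse. The p-values rest on the spread between libraries of a group, pooled over all 4 groups and drawn towards that of genes of similar level.

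Of 8204 cells, 7159 (87.3%) carried a Pecam1 UMI, with 7451522 to 16338968 UMIs per library. The 7 endothelial markers were above 0 in every library. Replicate 1 of implanted cGAMP stood apart, with a median of 3049 UMIs per Pecam1-positive cell and 37.9% of these cells under 2000 UMIs, against medians of 9523 to 14707.5 in the other libraries, so calls in the implanted tumour are also given without it. Cells with UMIs of at least 2 immune markers made up 0.666% to 1.19% of the PBS libraries and 4.18% to 12.4% of the cGAMP libraries. Cells with at least 2 mural markers made up 1.91% to 5.66% and 9.42% to 20.6%. Cells with at least 2 of 7 epithelial markers made up 34.8% to 83.0% of a library, all 7 markers were above 0 in every library, and their summed level was 160 to 1114 CPM. In all, 7 cell barcodes occurred in more than 1 library.

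To place the members in the genome, start sites were read from RefSeq (GRCm38.p6). The table held 14 windows for 9 of the 10 members, and the 250 bases before each start were searched on both strands for 3 motifs. The interferon response element (GAAA and GAAA set 2 bases apart) occurred in 0 of the 14 windows (2.98% of all 32851 windows). The NF-kB motif (GGG and TTTCC set 2 bases apart) occurred in 3 windows, of Bcl2l1, Mcl1 and Bbc3 (1.41% of all), and the FOXO motif TGTTTAC in 2, of Bbc3 and Bcl2l11 (3.17% of all). These matches describe letters only. In the GENCODE annotation of GRCm38, the protein-coding genes Bcl2, Mcl1 and Bcl2l11 span chr1:106538178-106714274 (minus strand), chr3:95658788-95663176 (plus) and chr2:128126038-128162547 (plus). The 3 windows printed here belong to members that changed after cGAMP and lie wholly outside annotated transcripts. They are those of Bcl2 (chr1:106714291-106714540, minus strand), Mcl1 (chr3:95658471-95658720, plus strand) and Bcl2l11 (chr2:128125788-128126037, plus strand), 5′ to 3′, with motif matches in capitals.
Bcl2: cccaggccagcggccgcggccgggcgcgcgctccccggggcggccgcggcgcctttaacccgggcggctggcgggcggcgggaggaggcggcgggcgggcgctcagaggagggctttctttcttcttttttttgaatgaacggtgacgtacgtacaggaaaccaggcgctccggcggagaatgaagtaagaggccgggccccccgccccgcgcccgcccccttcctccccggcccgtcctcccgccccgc
Mcl1: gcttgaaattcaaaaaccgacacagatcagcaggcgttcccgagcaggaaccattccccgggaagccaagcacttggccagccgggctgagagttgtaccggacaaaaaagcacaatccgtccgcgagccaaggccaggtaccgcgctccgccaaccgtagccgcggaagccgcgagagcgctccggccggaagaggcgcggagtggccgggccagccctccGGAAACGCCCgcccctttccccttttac
Bcl2l11: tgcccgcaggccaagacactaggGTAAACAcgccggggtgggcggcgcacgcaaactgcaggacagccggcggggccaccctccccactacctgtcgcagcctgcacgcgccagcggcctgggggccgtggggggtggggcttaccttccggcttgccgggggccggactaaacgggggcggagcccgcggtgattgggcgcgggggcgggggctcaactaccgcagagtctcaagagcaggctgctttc
The window of Bcl2 held no match and 74.8% G and C, against a median of 52.4% over all windows. The capitals in Mcl1 mark an NF-kB match that begins 28 bases before the start, in a window of 64.4% G and C. Those in Bcl2l11 mark a FOXO match that begins 227 bases before the start, in a window of 72% G and C.

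Levels are given as UMIs per 1000000 (CPM), the mean over the Pecam1-positive cells of a library after the UMIs of each cell were scaled to the same total. Since each captured molecule gives 1 UMI whatever its length, CPM can be set side by side between genes, although capture may differ between transcripts. Mcl1, a short-lived protein that holds BAK and BIM, was the most abundant member, with a mean of 369 CPM over the 8 libraries and 328 CPM or more in each. Bax, an effector, followed with 187 CPM, and the other effector, Bak1, with 54.8 CPM. Those 3 kept this order in every library. Bcl2l11 (36.8 CPM), which encodes the BH3-only protein BIM, Bcl2 (33.2 CPM) and Bcl2l1 (32.8 CPM), which encodes BCL-XL, had overlapping ranges across libraries, and so did Bbc3 (13.3 CPM, encoding PUMA), Pmaip1 (9.39 CPM, encoding NOXA) and Bid (8.52 CPM). The plot of levels by library shows these ranges.

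**Figure D1:**
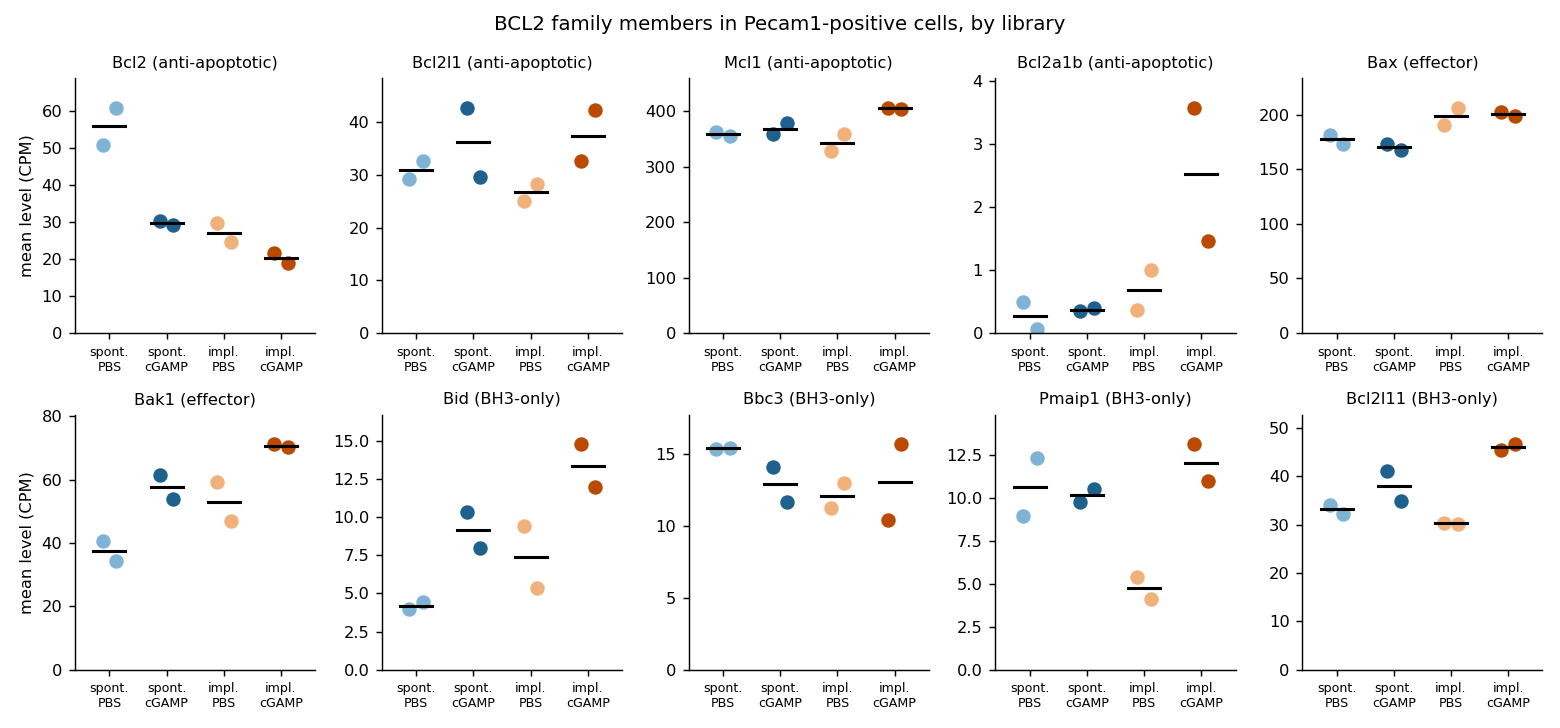
Mean level in CPM (y axis, linear, from 0) of each of the 10 members in Pecam1-positive cells of the 8 libraries, by group (x axis); points are libraries and the bar is the group mean. Bcl2 was highest in both spontaneous PBS libraries (50.7 and 60.8 CPM), and the y axes differ between genes.

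Bcl2a1b was close to absent and is kept apart from the tests. It had 82 UMIs in all, at 0.491 and 0.0618 CPM in spontaneous PBS, 0.354 and 0.392 CPM in spontaneous cGAMP, 0.362 and 0.997 CPM in implanted PBS and 3.58 and 1.46 CPM in implanted cGAMP. Both implanted cGAMP libraries lay above the rest. Of its UMIs, 44 (53.7%) lay in cells with at least 2 immune markers, where its level was 9.51 CPM against 0.811 CPM in the other cells, whereas such cells held 6.15% to 8.58% of the UMIs of each other member. Bcl2a1b shares most of its sequence with Bcl2a1a and Bcl2a1d, so reads could be split between them and its value is uncertain.

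After cGAMP, 3 of the 9 members tested changed in spontaneous tumour ECs and 4 in implanted tumour ECs. In the spontaneous tumour Bcl2 fell and the pro-apoptotic Bak1 and Bid rose, whereas in the implanted tumour the BH3-only genes Pmaip1 and Bcl2l11 rose together with Bak1 and the anti-apoptotic Mcl1. A change was called at a Benjamini-Hochberg adjusted p under 0.05 from limma on log2(CPM + 1), over 10424 genes. Of all these genes, 12.7% were called in the spontaneous and 25.0% in the implanted tumour, and 3 and 4 of 9 are counts too small to read as particular to the members. Median-of-ratios scaling shifted the all-gene median log2 fold change from -0.10 to about 0 in both models and raised the share of higher genes among calls from 40.2% to 65.3% in spontaneous and from 34.3% to 51.7% in implanted tumours, while each called member kept its direction and call. The members' median log2 fold change was 0.04 in spontaneous and 0.42 in implanted tumours.

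Among the anti-apoptotic genes, Bcl2 was at 50.7 and 60.8 CPM in spontaneous PBS, 30.4 and 29.2 CPM in spontaneous cGAMP, 29.6 and 24.6 CPM in implanted PBS and 21.7 and 18.8 CPM in implanted cGAMP. The cGAMP libraries lay below the PBS libraries in both models, and both spontaneous cGAMP libraries were close to the implanted PBS level. Bcl2 fell by 0.88 ± 0.14 on the log2 scale (SE, limma adjusted p = 0.00343) in the spontaneous tumour, from 55.8 ± 7.14 to 29.8 ± 0.854 CPM (SD, n = 2). This call was lost with each cell thinned to 2000 UMIs (log2 fold change -0.48, adjusted p = 0.174), which leaves out 1001 shallower cells. In the implanted tumour its log2 fold change was -0.40 ± 0.14 (adjusted p = 0.0614), and -0.50 (adjusted p = 0.0515) without replicate 1 of implanted cGAMP. At 2000 UMIs per cell it was -0.85 (adjusted p = 0.00864), so in that setting Bcl2 was called in the implanted and not in the spontaneous tumour. The difference of the responses was not called there (-0.37, limma adjusted p = 0.742).

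Mcl1 was at 363 and 355 CPM in spontaneous PBS, 359 and 379 CPM in spontaneous cGAMP, 328 and 359 CPM in implanted PBS and 406 and 404 CPM in implanted cGAMP. Only the implanted cGAMP libraries stood above all others. Mcl1 rose by 0.24 ± 0.07 (limma adjusted p = 0.0366) in the implanted tumour, and its log2 fold change in the spontaneous tumour was 0.04 ± 0.07 (adjusted p = 0.761). The rise was called in 7 of 22 alternatives, and not without replicate 1 of implanted cGAMP (0.24, adjusted p = 0.0847) or without immune-marker cells (0.21, adjusted p = 0.0637). Bcl2l1 was at 29.3 and 32.7 CPM in spontaneous PBS, 42.7 and 29.6 CPM in spontaneous cGAMP, 25.0 and 28.4 CPM in implanted PBS and 32.6 and 42.3 CPM in implanted cGAMP. Its groups overlapped in the spontaneous tumour and not in the implanted one. It passed the test in neither, with log2 fold changes of 0.20 ± 0.18 (adjusted p = 0.521) and 0.46 ± 0.18 (adjusted p = 0.0945), the latter becoming 0.65 (adjusted p = 0.0448) without replicate 1 of implanted cGAMP.

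Of the effectors, Bak1 was at 40.7 and 34.3 CPM in spontaneous PBS, 61.5 and 54.0 CPM in spontaneous cGAMP, 59.2 and 46.9 CPM in implanted PBS and 71.2 and 70.4 CPM in implanted cGAMP. In both models the cGAMP libraries lay above the PBS libraries. Bak1 rose by 0.61 ± 0.13 (limma adjusted p = 0.0183) in spontaneous and by 0.42 ± 0.13 (adjusted p = 0.0472) in implanted tumours. The spontaneous call was lost without replicate 2 of PBS (adjusted p = 0.112) or either cGAMP replicate (adjusted p = 0.135 and 0.0538), and the implanted call held in 9 of 22 alternatives, with 0.41 (adjusted p = 0.108) without replicate 1 of implanted cGAMP and 0.41 (adjusted p = 0.0508) without immune-marker cells. Bax, by contrast, was at 182 and 173 CPM in spontaneous PBS, 173 and 168 CPM in spontaneous cGAMP, 191 and 206 CPM in implanted PBS and 202 and 198 CPM in implanted cGAMP. Its cGAMP libraries lay close to the PBS libraries of the same model, and its log2 fold changes were -0.06 ± 0.07 (adjusted p = 0.657) and 0.01 ± 0.07 (adjusted p = 0.914).

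Of the BH3-only genes, Bid, whose product is cleaved by caspase-8 and carries death receptor signals to the mitochondrion, was at 3.95 and 4.42 CPM in spontaneous PBS, 10.3 and 8.0 CPM in spontaneous cGAMP, 9.41 and 5.34 CPM in implanted PBS and 14.7 and 12 CPM in implanted cGAMP. Again the cGAMP libraries were above the PBS libraries in both models. Bid rose by 0.96 ± 0.27 (limma adjusted p = 0.0449) in the spontaneous tumour, a call that was lost without any 1 of its 4 libraries (adjusted p = 0.105 to 0.229). At 2000 UMIs per cell the value was 0.31 (adjusted p = 0.713). In the implanted tumour the log2 fold change was 0.81 ± 0.27 (adjusted p = 0.0506), and 0.67 (adjusted p = 0.176) without replicate 1 of implanted cGAMP. Bid had 743 UMIs in all, which limits its precision.

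Bcl2l11 was at 34.0 and 32.3 CPM in spontaneous PBS, 41.1 and 34.8 CPM in spontaneous cGAMP, 30.4 and 30.1 CPM in implanted PBS and 45.3 and 46.6 CPM in implanted cGAMP. Its highest libraries were those of implanted cGAMP. It rose by 0.59 ± 0.11 (limma adjusted p = 0.00467) in the implanted tumour, from 30.3 ± 0.223 to 46.0 ± 0.873 CPM (SD, n = 2), and by 0.61 (adjusted p = 0.0122) without replicate 1 of implanted cGAMP. In the spontaneous tumour its log2 fold change was 0.19 ± 0.11 (adjusted p = 0.294).

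Pmaip1 was at 8.95 and 12.3 CPM in spontaneous PBS, 9.76 and 10.5 CPM in spontaneous cGAMP, 5.39 and 4.13 CPM in implanted PBS and 13.1 and 10.9 CPM in implanted cGAMP. The implanted PBS libraries were lower than all others. Pmaip1 rose by 1.18 ± 0.22 (limma adjusted p = 0.00405) in the implanted tumour, the largest log2 fold change of a called member, and by 1.06 (adjusted p = 0.0192) without replicate 1 of implanted cGAMP. In the spontaneous tumour the value was -0.05 ± 0.22 (adjusted p = 0.907). Bbc3, a target of p53 like Pmaip1, was at 15.3 and 15.4 CPM in spontaneous PBS, 14.1 and 11.6 CPM in spontaneous cGAMP, 11.3 and 12.9 CPM in implanted PBS and 10.4 and 15.6 CPM in implanted cGAMP. Its cGAMP libraries lay below the PBS libraries in the spontaneous tumour and overlapped them in the implanted one. Bbc3 passed the test in neither, with log2 fold changes of -0.24 ± 0.20 (adjusted p = 0.46) and 0.07 ± 0.20 (adjusted p = 0.829).

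**Figure D2:**
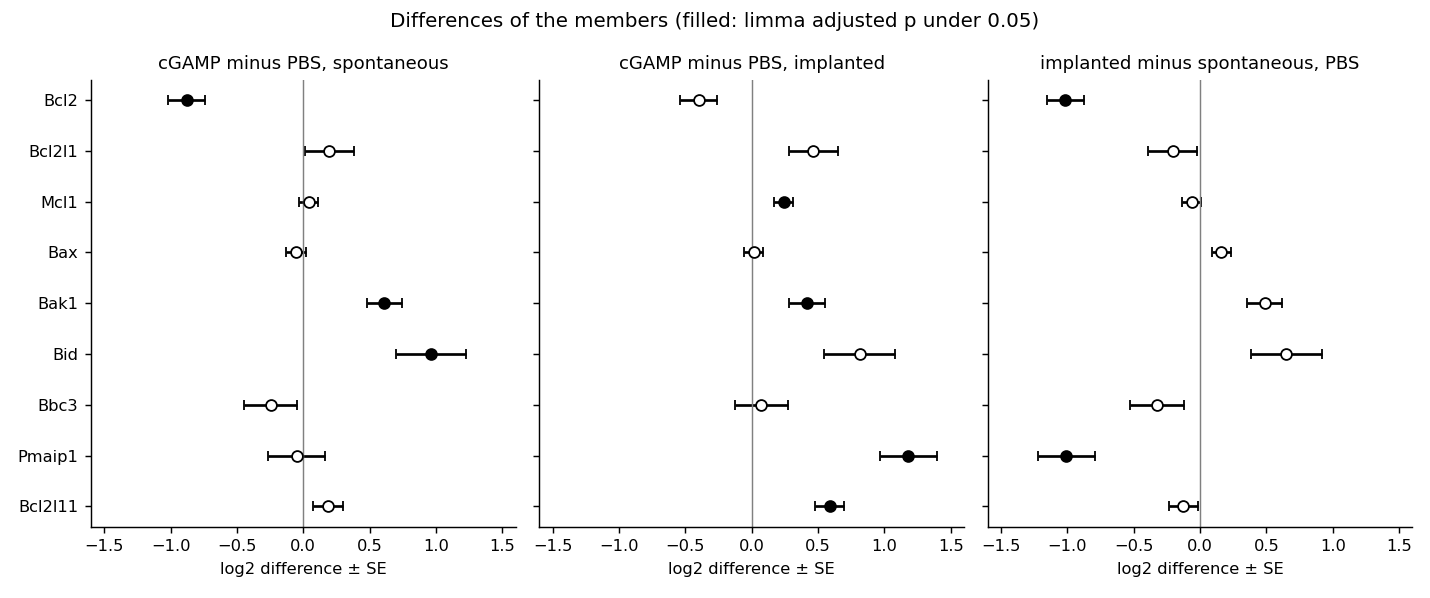
Log2 differences of the 9 tested members with their SE (x axis) for the comparisons of libraries; filled points have a limma adjusted p under 0.05. Bcl2 lay below 0 after cGAMP in both models (-0.88 and -0.40), and Bak1 (0.61 and 0.42) and Bid (0.96 and 0.81) above it.

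Whether the models responded differently was tested as the difference of the responses, implanted minus spontaneous. No member was called (0 of 9, and 0.662% of all genes), while 3 had an unadjusted p under 0.05. These were Pmaip1, with a difference of 1.23 ± 0.31 (unadjusted p = 0.00271, limma adjusted p = 0.12), Bcl2 with 0.48 ± 0.20 (unadjusted p = 0.0359, adjusted p = 0.335) and Bcl2l11 with 0.40 ± 0.16 (unadjusted p = 0.0294, adjusted p = 0.314). None was called in any of 22 alternatives. At 2000 UMIs per cell the difference was 0.57 (adjusted p = 0.805) for Pmaip1 and 0.74 (adjusted p = 0.506) for Bcl2l11, and that of Bcl2 turned to -0.37 (adjusted p = 0.742). The responses of the members are therefore not shown to differ between models.

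Between the models, Bcl2 was lower in implanted than in spontaneous tumour ECs after either injection. After PBS, where 2 of 9 members and 7.83% of all genes were called, Bcl2 was lower by a log2 difference of -1.02 ± 0.14 (limma adjusted p = 0.0027), with both implanted libraries below both spontaneous ones. Pmaip1 was lower as well, by -1.01 ± 0.22 (adjusted p = 0.0231), a call that was lost without either implanted PBS library (adjusted p = 0.0699 and 0.144) or without replicate 2 of spontaneous PBS (adjusted p = 0.171). At 2000 UMIs per cell neither was called (Bcl2 -0.46, adjusted p = 0.272). After cGAMP, where 1 of 9 members and 13.8% of all genes were called, Bcl2 was lower by -0.54 ± 0.14 (adjusted p = 0.0331), and by -0.63 (adjusted p = 0.0402) without replicate 1 of implanted cGAMP. This call was lost without any 1 of the other 3 cGAMP libraries (adjusted p = 0.098 to 0.142) and under median-of-ratios scaling (adjusted p = 0.059). That scaling raised the share of higher genes among all calls from 43.3% to 65.4% after PBS and from 38.0% to 58.3% after cGAMP.

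To view the members as a balance, the CPM of the 4 anti-apoptotic genes was summed and divided by that of the 6 pro-apoptotic genes. The ratio was 1.56 and 1.65 in the spontaneous tumour after PBS and 1.40 and 1.53 after cGAMP, and 1.25 and 1.35 in the implanted tumour after PBS and 1.30 and 1.32 after cGAMP. It was highest in spontaneous PBS, and the implanted groups overlapped. No test was made on the ratio, since it is a score over chosen members. The anti-apoptotic sum was 446, 435, 398 and 465 CPM in the same order of groups (means, n = 2), the effector sum 215, 228, 252 and 271 CPM, and the BH3-only sum 63.3, 70.1, 54.5 and 84.3 CPM. In implanted tumours both sides were thus higher after cGAMP, and the ratio of 1.30 ± 0.0708 stood beside 1.31 ± 0.0126 (SD, n = 2).

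Mcl1 carried 79.1% to 87.5% of the anti-apoptotic sum and so set most of this ratio. With Mcl1 left out of the numerator, the ratio was 0.313 ± 0.0432 after PBS and 0.222 ± 0.0219 after cGAMP in the spontaneous tumour, and 0.178 ± 0.00212 and 0.169 ± 0.0104 in the implanted tumour (SD, n = 2). Its order followed that of Bcl2. Of the single pairs, the ratio of Mcl1 to Bak1 was 9.63 ± 1.02 in spontaneous PBS and between 5.73 and 6.59 in the other groups. That of Bcl2l1 to Bax had group means of 0.134 to 0.212 and was lowest in both implanted PBS libraries (0.131 and 0.138), while the other groups overlapped.

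**Figure D3:**
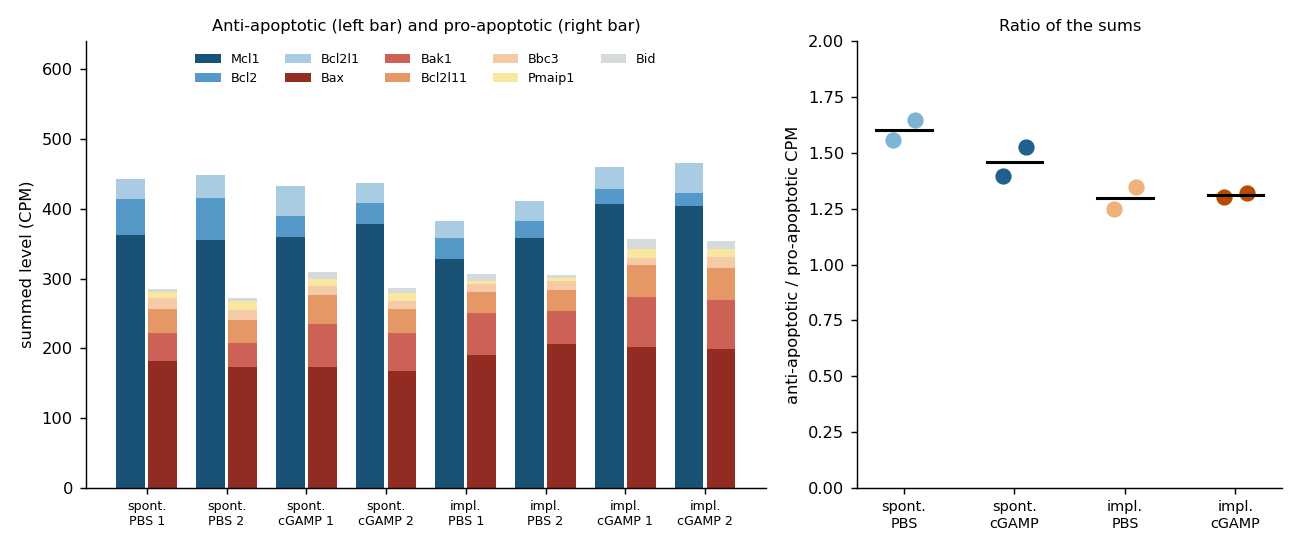
Left, summed CPM of anti-apoptotic (left bar) and pro-apoptotic members (right bar) in each of the 8 libraries, stacked by gene from 0, without Bcl2a1b, which reached at most 3.58 CPM. Right, the ratio of the sums per library, Bcl2a1b included, which was 1.56 and 1.65 in spontaneous PBS and 1.25 to 1.53 in the other libraries.

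Members were then measured by type of vessel. A cell was placed in 1 of 6 groups by its mean score over 7 markers each (arterial, venous or stalk-like, tip-like, AQP7+ capillary, lymphatic and proliferative), none of them a member. The groups held 1068 arterial, 1105 venous, 827 tip-like, 607 AQP7+, 419 lymphatic and 354 proliferative cells, and 2779 (38.8%) fell in none. Such groups are ranges of a score rather than fixed types, with 17 to 296 cells of a tested group within 0.1 of the threshold, and members and markers were read from the same cells. Proliferative cells were as few as 3 in a library and were not tested.

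Tip-like cells, which lead vessel sprouts under VEGF and hypoxia, differed from the other cells in 3 of 6 members tested, beside 35.5% of all genes. Bcl2l11 was higher in them than in the other Pecam1-positive cells of the same library in 8 of 8 libraries, by 1.35 ± 0.09 on the log2(CPM + 5) scale (limma adjusted p = 2.51e-08). Bcl2 was higher too, by 0.75 ± 0.11 in 8 of 8 libraries (adjusted p = 0.000111), and Bcl2l1 was lower by -0.80 ± 0.10 in 8 of 8 (adjusted p = 2.08e-05). An anti-apoptotic and a pro-apoptotic gene were thus higher in the same group of cells.

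In tip-like cells Bcl2l11 was at 65.6 and 58.3 CPM in spontaneous PBS, 106 and 69.9 CPM in spontaneous cGAMP, 60.6 and 74.3 CPM in implanted PBS and 134 and 122.5 CPM in implanted cGAMP, against 26.6 to 31.7 CPM in the other cells. The lowest tip-like value was above the highest value of other cells. Pmaip1 was at 10.3 and 13.4 CPM, 21 and 30.5 CPM, 16.6 and 10.9 CPM, and 50 and 37.6 CPM in the same order of groups, against 3.6 to 12.2 CPM in the other cells. It was above the other cells of the same library in 8 of 8, though too low in those for a test. In the plot of tip-like and other cells, the gap was widest in the implanted cGAMP libraries for both genes.

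**Figure D4:**
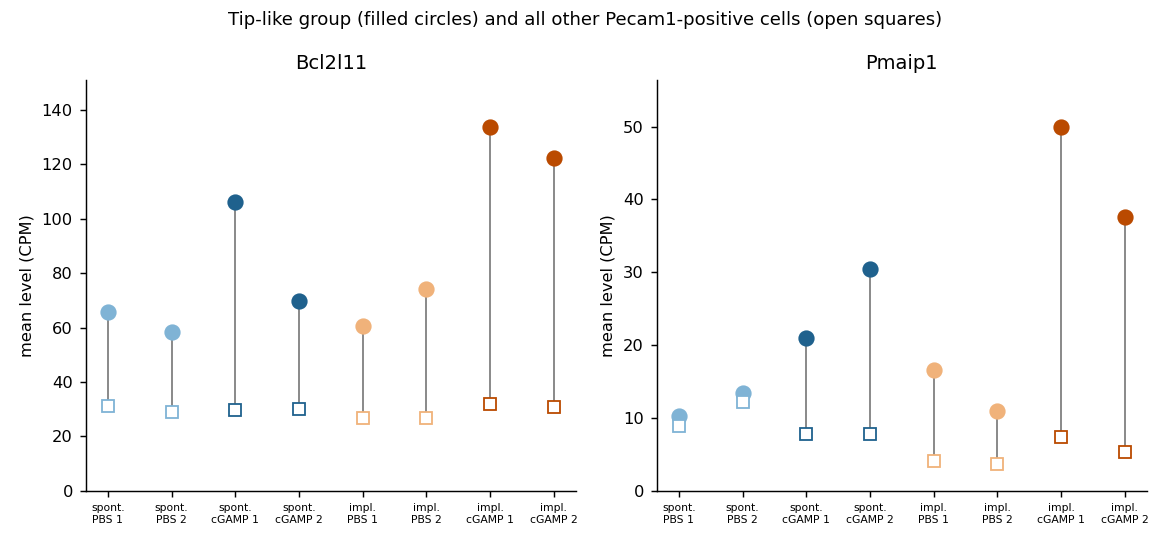
Mean level in CPM (y axis) of members in the tip-like group (filled circles) and in all other Pecam1-positive cells (open squares) of each of the 8 libraries (x axis). Bcl2l11 in tip-like cells was at 58.3 CPM or more in every library and in other cells at 31.7 CPM or less.

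Of the other groups, arterial cells had more Bcl2l1, by 0.85 ± 0.09 in 8 of 8 libraries (limma adjusted p = 1.68e-06), with 35.3 to 99.4 CPM against 22.8 to 39.3 CPM in the other cells. They had less Bcl2 (-0.45, adjusted p = 0.00686, lower in 6 of 8 libraries) and Bcl2l11 (-0.49, adjusted p = 0.00101, lower in 8 of 8). Mcl1 was called as well (0.14, adjusted p = 0.0477), but was higher in 5 and lower in 3 of the 8 libraries and called in 4 of 14 alternatives. Thus 4 of 6 members were called beside 45.7% of all genes. Venous cells had less Bcl2, by -0.83 ± 0.09 (adjusted p = 3.63e-06), with 6.44 to 43.2 CPM against 19.7 to 63.5 CPM in the other cells and the lower value in each of the 8 libraries. They also had less Bcl2l11 (-0.57, adjusted p = 0.00021), Bak1 (-0.41, adjusted p = 0.000297) and Bcl2l1 (-0.40, adjusted p = 0.0018), 4 of 6 beside 40.8%.

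Lymphatic cells had more Bcl2l1 (0.74, limma adjusted p = 0.0124) and Mcl1 (0.25, adjusted p = 0.0136) and less Bcl2l11 (-0.48, adjusted p = 0.0123) and Bak1 (-0.40, adjusted p = 0.0139), 4 of 6 beside 35.9% of all genes. AQP7+ capillary cells differed in 1 of 6 members, with less Bcl2l11 (-0.52, adjusted p = 0.00495), beside 21.2%. Bax was called in none of the groups. The median level of Bcl2l11 over the 8 libraries was 72.1 CPM in tip-like cells and 21.1 to 26.2 CPM in the other 5 groups, whose ranges overlapped.

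**Figure D5:**
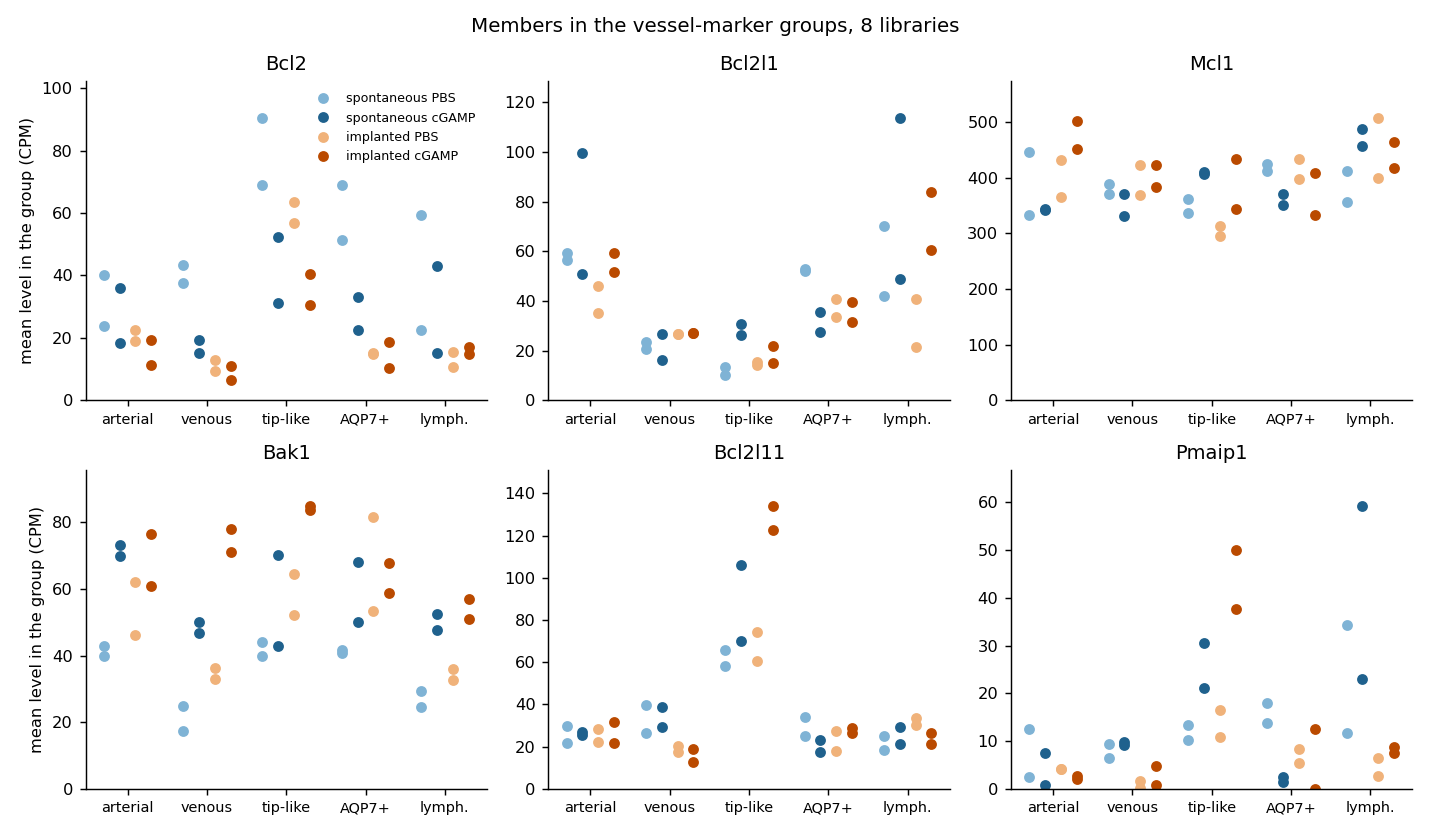
Mean level in CPM (y axis) of members in each vessel-marker group (x axis), points being the 8 libraries coloured by group of mice. Bcl2l11 stands highest in tip-like cells (58.3 to 134 CPM), and Bcl2l1 is high in arterial cells (35.3 to 99.4 CPM).

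At 2000 UMIs per cell, 4 of these 16 calls were made (Bcl2l11 and Bcl2 in tip-like, Bcl2l1 in arterial and Bcl2 in venous cells), and these 4 held in all 14 alternatives. Without replicate 1 of implanted cGAMP 15 of the 16 were called, the exception being Mcl1 in arterial cells. Pooled over libraries, the median depth was 10095 to 13589 UMIs per cell across the tested groups. Single libraries differed more, with medians of 5192 and 20307 UMIs for tip-like cells in replicates 1 and 2 of implanted cGAMP. For lymphatic cells these were 2233.5 and 17574.5 UMIs.

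Within the groups, cGAMP changed few members. In venous cells Bak1 was at 24.8 and 17.2 CPM in spontaneous PBS, 50.1 and 46.8 CPM in spontaneous cGAMP, 36.4 and 32.9 CPM in implanted PBS and 77.9 and 70.9 CPM in implanted cGAMP. The cGAMP libraries lay above the PBS libraries in both models. It rose by 1.05 ± 0.20 (limma adjusted p = 0.00323) in spontaneous and by 1.0 ± 0.20 (adjusted p = 0.00322) in implanted tumours, and by 0.94 (adjusted p = 0.0172) in the latter without replicate 1 of implanted cGAMP. The spontaneous call was lost without replicate 2 of spontaneous PBS (0.84, adjusted p = 0.0611). Bax in venous cells rose in the implanted tumour, by 0.47 ± 0.13 (adjusted p = 0.0284), from 170 and 179 to 264 and 225 CPM, and was not called without replicate 1 of implanted cGAMP (0.36, adjusted p = 0.115) or without either implanted PBS library (adjusted p = 0.178 and 0.123).

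In tip-like cells Pmaip1 reached the mean of 20 CPM needed for a test only through its cGAMP libraries. Its group means were 11.8 (spontaneous) and 13.7 CPM (implanted) after PBS, and 25.8 and 43.8 CPM after cGAMP. Its p-values in these cells are therefore no support for a rise. In the implanted tumour its log2 fold change after cGAMP was 1.39 ± 0.33 (limma adjusted p = 0.00935), and that of Bcl2l11 was 0.88 ± 0.22 (adjusted p = 0.0129). Without replicate 1 of implanted cGAMP the values were 1.20 (adjusted p = 0.0802) and 0.82 (adjusted p = 0.0711), and without replicate 2 they were 1.57 (adjusted p = 0.0315) and 0.94 (adjusted p = 0.053). Pmaip1 also lost its call without replicate 2 of implanted PBS (adjusted p = 0.0956), and Bcl2l11 without replicate 1 (adjusted p = 0.0861). In the spontaneous tumour Pmaip1 was at 0.86 ± 0.33 (adjusted p = 0.139) and Bcl2l11 at 0.45 ± 0.22 (adjusted p = 0.277), while Bcl2 in tip-like cells fell by 0.89 ± 0.26 (adjusted p = 0.0489), a call that was lost in 10 of 14 alternatives and whose value turned to 0.21 (adjusted p = 0.906) at 2000 UMIs per cell.

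The background for these responses was 4.31% of genes in spontaneous and 8.31% in implanted tumours for arterial cells, 7.32% and 16.7% for venous, 9.18% and 18.2% for tip-like, 2.65% and 3.92% for AQP7+ and 2.89% and 2.53% for lymphatic cells. Of 30 pairs of member and group, 2 were called in spontaneous and 4 in implanted tumours. The 4 include Pmaip1 in tip-like cells, which passed the filter only through its cGAMP libraries. None of the 6 was called at 2000 UMIs per cell.

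By the marker score, the share of tip-like cells was higher after cGAMP in both models, and its part in the responses was not tested. The paper, which grouped the cells by clustering instead, proposes the opposite for the implanted tumour, a marked loss of tip-like ECs after cGAMP. The 2 definitions of tip-like cells differ, and whether the markers of the score themselves responded to cGAMP was not tested. Tip-like cells made up 11% and 7.29% of Pecam1-positive cells in implanted PBS and 13.3% and 17.4% in implanted cGAMP. With them left out, an alternative added after seeing the data, the log2 fold change of Pmaip1 was 0.61 (limma adjusted p = 0.123) and that of Bcl2l11 0.22 (adjusted p = 0.201). In the spontaneous tumour, where tip-like cells made up 7.98% and 11.1% after PBS and 15.1% and 12% after cGAMP, Bcl2 (-0.90, adjusted p = 0.00659) and Bak1 (0.63, adjusted p = 0.0187) were as large without them, Bid was at 0.81 (adjusted p = 0.0971), and Pmaip1 over all ECs was at -0.05. Without immune-marker cells the values of the implanted tumour were 1.15 (adjusted p = 0.00612) for Pmaip1 and 0.52 (adjusted p = 0.00909) for Bcl2l11, while Bak1 and Mcl1 lost their calls. Without mural-marker cells they were 1.14 (adjusted p = 0.00853) and 0.58 (adjusted p = 0.00814), Bak1 lost its call (0.40, adjusted p = 0.0614), and Bcl2 in the spontaneous tumour was at -0.91 (adjusted p = 0.00229). Without epithelial-marker cells, Pmaip1 alone kept its call in the implanted tumour (1.62, limma adjusted p = 0.0282). Bcl2l11 was then at 0.67 (adjusted p = 0.172) and Bak1 at 0.41 (adjusted p = 0.369) in the implanted tumour, and in the spontaneous tumour Bcl2 was at -0.71 (adjusted p = 0.185), Bak1 at 0.39 (adjusted p = 0.382) and Bid at 0.77 (adjusted p = 0.344).

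Other genes of the pathway were counted in the same fit, so each list's counts stand beside 12.7% of all genes called in spontaneous and 25.0% in implanted tumours. Of the 19 pathway genes called in implanted tumours, 13 kept their call without replicate 1 of implanted cGAMP and 7 at 2000 UMIs per cell. Without epithelial-marker cells, which removed 34.8% to 83.0% of cells per library, 4 of the 19 were still called (Birc3, Cycs, Casp8 and Cflar, described below). None of the 19 changed direction in these alternatives. Of the other BCL2 family genes, 9 of 14 were tested, and limma called 0 in spontaneous tumours (1 had an unadjusted p under 0.05), while 1 rose and 4 fell in implanted tumours. Bnip3, a hypoxia-induced mitophagy gene, rose by 0.79 ± 0.15 (limma adjusted p = 0.00473). The BH3-only genes Bmf and Bik fell by 0.96 ± 0.24 (adjusted p = 0.0187) and by 0.66 ± 0.17 (adjusted p = 0.0216), and the effector-like Bok fell by 0.77 ± 0.16 (adjusted p = 0.00792). These pro-apoptotic genes thus went opposite to Pmaip1 and Bcl2l11. The call of Bik was lost at 2000 UMIs per cell and without replicate 1 of implanted cGAMP. The list's median log2 fold change was -0.19 in spontaneous and -0.50 in implanted tumours, against -0.10 over all genes in both.

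Of 18 genes of the apoptosome, the caspases and their inhibitors, all were tested, limma called 0 in spontaneous tumours (3 had an unadjusted p under 0.05) and 4 rose and 1 fell in implanted tumours (medians 0.02 and 0.05). Birc3 and Birc2, which encode inhibitor of apoptosis proteins, rose by 0.97 ± 0.25 (limma adjusted p = 0.0196) and 0.58 ± 0.15 (adjusted p = 0.0179). Cycs, which encodes the cytochrome c released from mitochondria, rose by 0.45 ± 0.07 (adjusted p = 0.00246), and Casp6, an executioner caspase, fell by 0.73 ± 0.13 (adjusted p = 0.00401). The calls of Birc2 and Casp6 were lost at 2000 UMIs per cell and without epithelial-marker cells.

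Of 8 genes of the death receptor arm, which acts on the family through Bid, 2 rose and 1 fell in spontaneous tumours and 3 rose and 2 fell in implanted tumours (medians 0.05 and -0.02). Casp8, whose product cleaves BID, rose by 0.37 ± 0.08 (limma adjusted p = 0.0125) and 0.67 ± 0.08 (adjusted p = 0.000299), and its inhibitor Cflar by 0.41 ± 0.10 (adjusted p = 0.0257) and 0.77 ± 0.10 (adjusted p = 0.000587). The activator and its inhibitor were thus both called higher in both models. The spontaneous call of Cflar was lost at 2000 UMIs per cell, and the spontaneous calls of both genes were lost without epithelial-marker cells. The receptor Tnfrsf10b rose by 0.80 ± 0.13 in implanted tumours (adjusted p = 0.00212). The receptor Fas fell by 0.91 ± 0.17 (adjusted p = 0.00771) and 0.55 ± 0.17 (adjusted p = 0.0396). Tnfrsf1a, the TNF receptor, fell by 0.25 ± 0.08 in implanted tumours (adjusted p = 0.0406). The calls of Tnfrsf10b, Fas and Tnfrsf1a were all lost at 2000 UMIs per cell and without epithelial-marker cells. That of Tnfrsf1a was also lost without replicate 1 of implanted cGAMP.

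Of 13 regulators of BCL2 proteins, limma called 0 in spontaneous tumours (3 had an unadjusted p under 0.05) and 4 fell in implanted tumours (medians -0.12 and -0.21). Huwe1, the ubiquitin ligase that turns over MCL1, fell by 0.40 ± 0.09 (limma adjusted p = 0.00995). The FOXO factor Foxo1 fell by 0.31 ± 0.08 (adjusted p = 0.0214) and the survival kinase Akt1 by 0.28 ± 0.09 (adjusted p = 0.0454). The calls of Huwe1, Foxo1 and Akt1 were all lost at 2000 UMIs per cell and without epithelial-marker cells. Those of Foxo1 and Akt1 were also lost without replicate 1 of implanted cGAMP, and that of Akt1 without mural-marker cells. Under median-of-ratios scaling the implanted calls of Fas, Tnfrsf1a, Foxo1 and Akt1 were lost, with the direction kept.

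For each member called after cGAMP, the 2 genes with the most alike levels over the 8 libraries were sought by Pearson's r among 8373 or 8374 genes whose mean reached 10 CPM. Those libraries share their groups, so r mostly tracks the 4 group levels and is given as a description. Bcl2l11 was most like Hilpda (r = 0.990), a hypoxia-induced lipid droplet gene, and Ppm1j (0.984), and Pmaip1 was most like R3hcc1l (0.956) and Xbp1 (0.954), a factor of the unfolded protein response. Bak1 was most like Slc2a6 (0.985) and Olfr56 (0.981), and Bid like Parp3 (0.987) and Chpf2 (0.983). Bcl2 was most like Msi2 (0.983) and 2410089E03Rik (0.982), and Mcl1 like Coq10b (0.959) and Vti1b (0.952).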

How the data were processed

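Live CD31+ CD45- tumour ECs of 8 libraries had been profiled by single-cell RNA sequencing. As the submitters' processing notes give it, reads were mapped to mm10 with Cell Ranger 3.0.0 and tables were made in Seurat 3.1.1. The methods add that cells with few genes or many mitochondrial UMIs and rare genes were removed. The authors deposited natural log values, ln(1 + UMIs × 10000 / total UMIs of the cell), and worked back these gave whole UMIs for 100% of values within a tolerance of 0.01. They also state that Pecam1- cell types were removed after a first clustering. The deposited tables still hold cells without a Pecam1 UMI, and the step of selection at which they were written is not given in the sources used here. No doublet caller was run. Numeric columns of no sample numbered 0.

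Gene levels per library were mean CPM over cells with a Pecam1 UMI, since cells are not replicates. Groups came from the labels. limma 3.58.1 (eBayes with trend, R 4.3.3) was fitted to log2(CPM + 1) of all 8 libraries for genes reaching 5 CPM in 2 or more libraries, with Benjamini-Hochberg adjustment over 10424 genes. Fold changes of low genes are understated by the pseudocount. In vessel-marker groups a score (mean z-scored log value of 7 markers) of at least 0.5 with a lead of 0.25 placed a cell, the 5 groups with at least 20 cells in every library were tested, the pseudocount was 5 CPM and the mean at least 20 CPM. The difference between a group and all other cells was taken within each library. Of the fits, only that of whole libraries was tested on simulated data, for cGAMP against PBS in implanted tumours. Python 3.11.15 with numpy 2.4.6, pandas 2.3.3, scipy 1.17.1 and matplotlib 3.10.9 made the tables and plots.

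The members, marker lists and pathway lists were chosen with earlier results of these data known. All members are described. Of each pathway list, up to 3 genes per direction with the largest change among those called after cGAMP are named, and the 2 genes most alike were sought for members called after cGAMP. There were 22 alternatives for the comparisons of libraries and 14 for the vessel-marker groups. A further promoter motif that was searched is not reported here.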

Additional observations from a re-analysis of the deposited data

Results flagged for a closer look

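Cells without a Pecam1 UMI, which no comparison above used, held more Bcl2l1 after cGAMP. All 10 members were searched for every cGAMP library above every PBS library in such cells, and Bcl2l1 alone was picked by that rule. In these cells Bcl2l1 was at 12.9, 19.3, 21.3 and 22.7 CPM in the 4 PBS libraries and at 45.3, 27, 36.1 and 77.0 CPM in the 4 cGAMP libraries, so the lowest cGAMP library, at 27 CPM, lay above every PBS library. These values rest on 2 to 16 UMIs per PBS library and 6 to 24 per cGAMP library, and no test was made on them. What kind of cells they were was not tested.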

How the results depend on the processing

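The direction of every called member was kept in all 22 alternatives for the comparisons of libraries. Members called in spontaneous tumours numbered 3 (Bcl2, Bak1 and Bid), but 1 without a filter on low values, 1 at 2000 UMIs per cell, 1 without the mean-variance trend, 0 without cells with 2 or more epithelial markers and 1 to 3 without any 1 library. In implanted tumours the 4 members became 2 without the filter, 7 with UMIs summed per library, 2 without proliferation-marker cells, 2 without the trend, 0 without tip-like cells, 1 without epithelial-marker cells and 2 to 4 without any 1 library. The 2 members called between models after PBS became 1 without the filter, 1 with all deposited cells, 0 at 2000 UMIs per cell, 0 without epithelial-marker cells and 1 to 3 without any 1 library. The 1 member called between models after cGAMP became 0 without the filter, 0 with all deposited cells, 2 without immune-marker cells, 2 without proliferation-marker cells, 0 without the trend, 2 without tip-like cells, 0 without mural-marker cells, 0 without epithelial-marker cells and 0 to 1 without any 1 library. The difference of the responses gave 0 members throughout. The alternatives that left out tip-like, mural-marker or epithelial-marker cells were chosen after seeing the data, and the last removed 34.8% to 83.0% of cells per library. For these losses the cause was not tested.

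Within vessel-marker groups, the 2 calls in spontaneous tumours became 1 with a pseudocount of 1 CPM, 1 without the filter, 1 with a lead of 0.5 in the marker score, 0 at 2000 UMIs per cell and 0 to 3 without any 1 library. There the value of Bcl2 in tip-like cells turned from -0.89 to 0.21 (limma adjusted p = 0.906) at 2000 UMIs per cell. The 4 calls in implanted tumours became 1 without the filter, 0 at 2000 UMIs per cell and 1 to 4 without any 1 library. The 16 differences between a group and the other cells became 4 at 2000 UMIs per cell and 13 to 17 without any 1 library. With 1 library left out, its group held 1, which was assumed to vary like the others.

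Replicate numbers were not used to pair the samples in the main fit. The deviations of same-numbered libraries correlated at -0.22 to 0.13, which shows no marked common shift and cannot settle whether they were paired. With a replicate block the members called numbered 3 in spontaneous and 5 in implanted tumours, 0 in the difference, 3 between models after PBS and 1 after cGAMP, and the 2 spontaneous calls within vessel-marker groups became 1. Over all genes, the share called in spontaneous tumours ranged from 4.32% (without the filter, and without replicate 1 of spontaneous cGAMP) to 27.4% with summed UMIs. In implanted tumours it ranged from 7.94% without epithelial-marker cells to 35.9% with summed UMIs, with 12.2% without replicate 2 of implanted PBS. In the difference it was 0% without the filter or the trend and at most 1.65%, without replicate 2 of implanted cGAMP. Between models it was 1.74% without the filter to 12.7% with summed UMIs after PBS, and 1.5% without replicate 2 of spontaneous cGAMP to 20% with summed UMIs after cGAMP. The anti-apoptotic to pro-apoptotic ratio lay at 1.51 to 1.66 in spontaneous PBS, 1.35 to 1.51 in spontaneous cGAMP, 1.24 to 1.42 in implanted PBS and 1.25 to 1.37 in implanted cGAMP over 8 other choices of cells or depth. Among the 9 tested members, depth limits Bid, Pmaip1 and Bbc3 most, with 743, 839 and 1203 UMIs in all.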
